A study of Mus musculus with 7 samples.

Results

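Respiratory complex I was followed through the 53 protein-coding genes of the GENCODE vM21 annotation whose symbols start with Nduf or mt-Nd. They are 53 of the 48795 gene identifiers of the count table, 21772 of which are protein-coding. They were picked by symbol, with earlier results of these data known. Of these genes 46 are encoded in the nucleus, spread over autosomes and the X chromosome, and 7 in the mitochondrial genome. The 46 comprise 36 subunits of complex I, 8 assembly factors (Ndufaf1 to Ndufaf8), and Ndufa4 and Ndufa4l2, which carry complex I symbols but belong with complex IV.

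Gene expression was measured by bulk sequencing of polyA RNA from B cells of the germinal centre light zone, sorted from the spleens of mice 10 days after sheep red blood cells were injected into a vein. The 7 libraries comprise 3 MIZ1KO (replicates 1 to 3) and 4 Control (replicates 1 to 4), and all mice of both groups were immunised. MIZ1 is the transcription factor encoded by Zbtb17, a binding partner of MYC. The sample titles carry MizFF for the MIZ1KO libraries and eYFP for the Control libraries. The sources used here do not give the Cre line, its promoter, the strain or the age of the mice. Nor do they tie each library to its own mouse, and p-values then reflect the spread between libraries only, which may be technical.

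Complex I oxidises NADH in the mitochondrial matrix, passes the electrons along iron-sulfur clusters to ubiquinone and pumps protons across the inner membrane. Its matrix arm holds the N module, which binds NADH, and the Q module, which binds ubiquinone; its membrane arm holds the proton pumps, whose core subunits are the mt-Nd proteins, so that the complex needs products of both genomes. Germinal centre B cells divide fast and use oxidative phosphorylation.

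Windows of 250 bases before to 50 bases after the transcription start (RefSeq, GRCm38.p6) were found for 40 of the 46 nuclear-encoded genes, 42 windows in all. Promoters of 3 genes are shown because they carry the letters searched for factors known to act on nuclear respiratory genes. Ndufs7 was also the gene of the 53 that edgeR called higher. The windows of Ndufs7 (chr10:80249199-80249498, plus strand) and of Ndufs4 (chr13:114388045-114388344, minus strand) hold the YY1 letters AAGATGGC, and that of Ndufaf4 (chr4:24897833-24898132, plus strand) holds the NRF1 letters GCGCATGC; capitals mark these letters.
Ndufs7: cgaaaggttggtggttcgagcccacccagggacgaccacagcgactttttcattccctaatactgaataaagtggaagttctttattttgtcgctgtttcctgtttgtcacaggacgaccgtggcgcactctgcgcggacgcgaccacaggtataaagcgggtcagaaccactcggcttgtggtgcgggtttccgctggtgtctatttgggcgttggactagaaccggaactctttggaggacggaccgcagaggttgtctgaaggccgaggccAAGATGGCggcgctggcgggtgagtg
Ndufs4: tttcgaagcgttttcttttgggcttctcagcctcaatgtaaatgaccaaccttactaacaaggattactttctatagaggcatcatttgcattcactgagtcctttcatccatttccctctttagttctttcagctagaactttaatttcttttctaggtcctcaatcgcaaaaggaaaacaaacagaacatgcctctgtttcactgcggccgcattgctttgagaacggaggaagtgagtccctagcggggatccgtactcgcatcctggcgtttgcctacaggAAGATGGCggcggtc
Ndufaf4: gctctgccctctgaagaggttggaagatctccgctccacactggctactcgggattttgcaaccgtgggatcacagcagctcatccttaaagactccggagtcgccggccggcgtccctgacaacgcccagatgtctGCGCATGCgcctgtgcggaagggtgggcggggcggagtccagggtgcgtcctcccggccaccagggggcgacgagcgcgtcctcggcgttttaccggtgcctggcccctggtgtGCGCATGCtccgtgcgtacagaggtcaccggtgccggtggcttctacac

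The YY1 letters AAGATGGC, searched on both strands, lay in 8 of the 42 windows (19.0%), against 2.75% of all promoter windows and 5.11% of those of tested protein-coding genes. These 8 windows belonged to Ndufa3, Ndufa9, Ndufaf8, Ndufb8, Ndufc1, Ndufs4, Ndufs6 and Ndufs7. In each of them the letters stood on the strand of the gene, with the first base between 11 and 39 bases past the transcription start. The letters include an ATG, and whether a match is a start codon was not tested. The NRF1 letters GCGCATGC or GCATGCGC, each the reverse complement of the other, lay in 5 windows (11.9%), against 2.71% of all windows and 5.97% of those of tested protein-coding genes, and belonged to Ndufa11, Ndufa6, Ndufa8, Ndufaf4 and Ndufaf5. Matches of the 2 strands can overlap, as in Ndufa11 and Ndufaf5. The median number of CpG pairs per window was 20.5 for the complex I genes and 21 for tested protein-coding genes. A match describes the sequence and shows no binding.

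The libraries held between 6896673 and 9482453 counts, of which ribosomal RNA took between 46.4% and 56.1%, so that between 3087992 and 5085019 counts remained. Ribosomal RNA here means the genes annotated as ribosomal RNA, nuclear or mitochondrial, together with Gm26917, which was added by symbol. Zbtb17 stood at 5.15, 3.69 and 4.49 CPM, counts scaled to library size, in MIZ1KO replicates 1 to 3 and at 3.14, 3.42, 3.14 and 7.0 CPM in Control replicates 1 to 4, and these counts over the whole gene do not check a deletion of part of it. Germinal centre B cell markers summed to 1443 to 1628 CPM in MIZ1KO and 1096 to 1334 CPM in Control, and light zone markers to 461 to 543 CPM and 402 to 588 CPM. T cell markers (5 genes, 0 of which passed edgeR's filter, while DESeq2 called Cd3e higher in MIZ1KO) summed to 1.5, 7.58 and 14.0 CPM in MIZ1KO and to at most 1.4 CPM in Control, erythroid markers to 60.6 to 474 CPM and 112 to 417 CPM, plasma cell markers to 108 to 181 CPM and 152 to 335 CPM, macrophage and granulocyte markers to 5.15 to 28.2 CPM and 7.98 to 12.4 CPM, and naive or memory B cell markers to 332 to 409 CPM and 287 to 334 CPM. Stromal markers summed to 65.6 to 91.0 CPM in MIZ1KO and 32.5 to 54.8 CPM in Control, nearly all of it Vim, the gene of the 4 that could be tested (log2 fold change 0.79, adjusted p = 0.0417); the collagens Col1a1 and Col3a1 had 0 counts in every MIZ1KO library. The part of other cells in the results was not tested. Gene models of the provisional annotation class TEC took 0.544%, 0.603% and 0.923% of the remaining counts in MIZ1KO and 1.02%, 1.62%, 2.58% and 1.95% in Control. Control replicate 1 stood apart from the other Control libraries, with a chi-square per degree of freedom of 129 against Control replicate 3, where the lowest value between libraries of a group was 15.8. Complex I results are therefore also given without these libraries where that changes them. In bulk RNA, fewer cells of a type and less RNA per cell cannot be told apart.

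Of the nuclear-encoded genes, 45 had enough counts to be tested. Ndufa4l2, a hypoxia-induced relative of Ndufa4, had 0 counts in every library, which allows at most 0.299 to 0.482 CPM in a library. In MIZ1KO cells 1 of the 45 rose, Ndufs7, and 0 fell, by edgeR's quasi-likelihood test with an adjusted p under 0.05 over the 11618 genes tested. Among all tested genes 1.9% were called higher and 4.05% lower, so the 2.22% of complex I genes called higher lay close to the background; among tested protein-coding genes the shares were 2.08% and 2.06%. DESeq2 also called Ndufs7 alone, with 3.02% of its genes higher and 4.75% lower, and so did limma-voom, with 1.09% higher and 1.85% lower.

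Before adjustment 4 of the 45 were higher at p under 0.05 (Ndufs7, Ndufa5, Ndufb7 and Ndufa2; 8.89%, against 9.92% of all tested genes) and 3 lower (Ndufb4, Ndufb9 and Ndufa4; 6.67%, against 14.7%). Their log2 fold changes, MIZ1KO over Control, lay between -0.95 and 1.42 with a median of 0.19, where the median was -0.03 over all tested genes and 0.03 over tested protein-coding genes. A log2 fold change above 0 was found for 27 of the 45 (60.0%), against 47.7% of all tested genes and 52.5% of protein-coding ones. The CPM of the groups did not overlap for 3 genes higher in MIZ1KO (Ndufs7, Ndufv3 and Ndufaf8; 6.67%, against 8.74% of all tested genes) and for 1 lower in MIZ1KO (Ndufb4; 2.22%, against 10.8%).

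**Figure D1:**
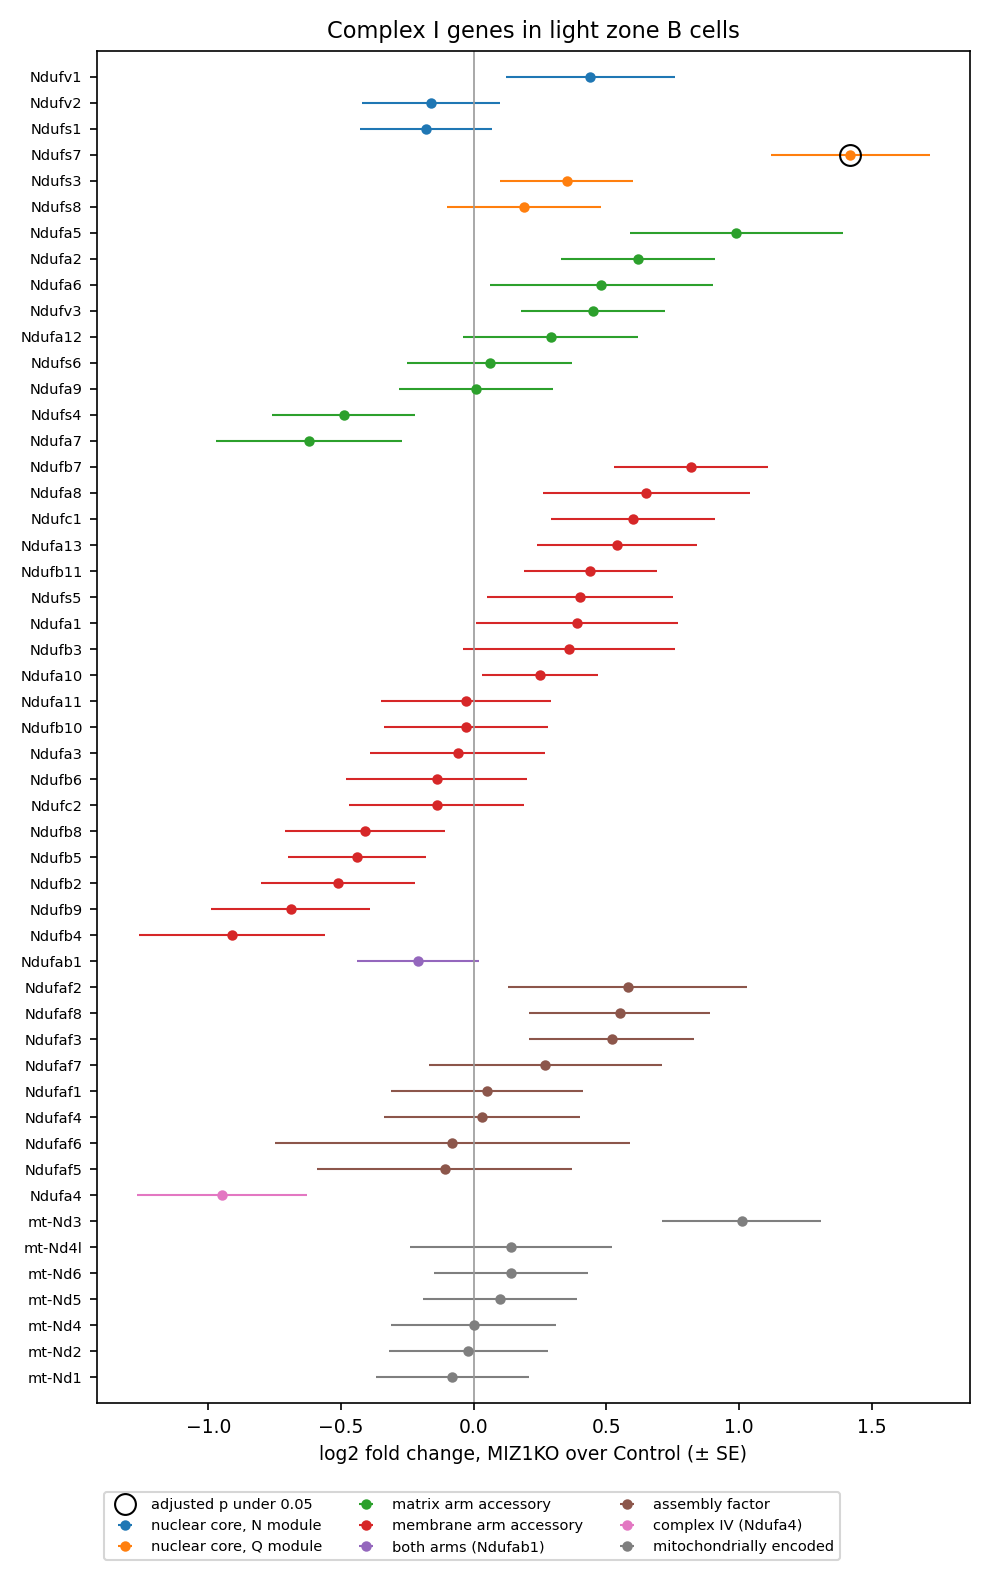
Log2 fold change of MIZ1KO over Control (points, with the standard error as lines) for 51 of the 52 tested genes of complex I and its assembly, ordered by role from the nuclear core subunits to the mitochondrially encoded ones. Ndufs7, at 1.42, is the circled point, the gene with an adjusted p under 0.05; the other points lie between -0.95 and 1.01.

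The summed level of the 46 nuclear-encoded genes was 1083, 1460 and 1045 CPM in MIZ1KO replicates 1 to 3 and 1677, 1249, 739 and 966 CPM in Control replicates 1 to 4. MIZ1KO averaged 1196 ± 229 CPM (SD, n = 3) and Control 1158 ± 404 CPM (SD, n = 4), and every MIZ1KO value lay inside the Control range. Control replicate 1 held the highest level of the 7 libraries for 20 of the 45 tested genes, Control replicate 3 the lowest for 28, and MIZ1KO replicate 2 the highest for 16. The spread within Control thus exceeded the difference between the group means. Among the Control libraries the sums ran in the reverse order of the TEC shares, and the part of TEC models in these levels was not tested beyond the fit with their share as a covariate. In that fit the median log2 fold change of the 45 was -0.95 and 6 were above 0. The TEC shares were 0.544% to 0.923% in MIZ1KO and 1.02% to 2.58% in Control, without overlap. Genotype and TEC share therefore cannot be well told apart by that fit. Without Control replicate 1 the median was 0.41, and without MIZ1KO replicate 2 it was -0.10.

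**Figure D2:**
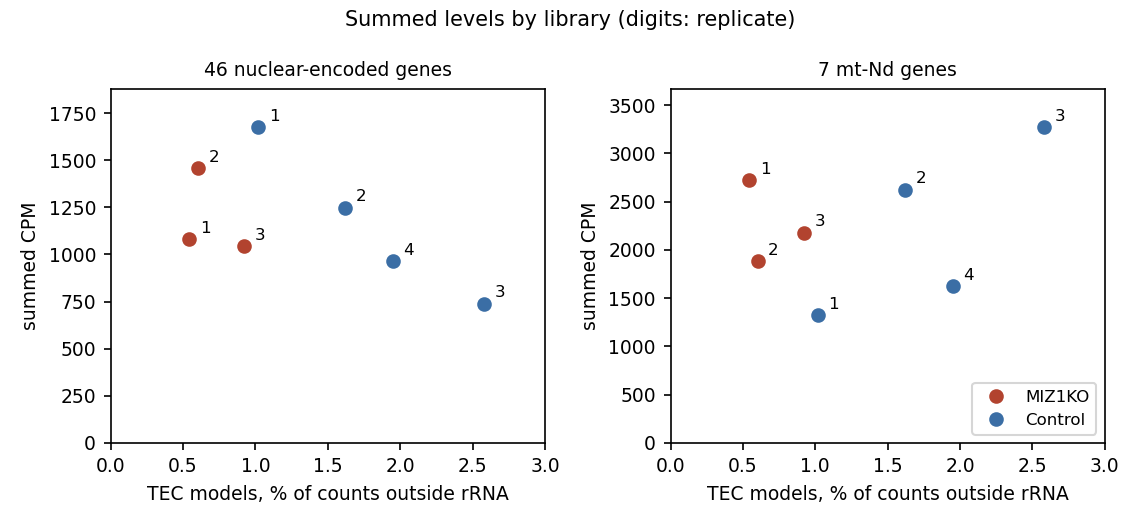
Summed CPM of the 46 nuclear-encoded genes (left) and of the 7 mt-Nd genes (right) in each library, against the share of counts outside ribosomal RNA in TEC models. MIZ1KO libraries have TEC shares of 0.544% to 0.923% and Control libraries of 1.02% to 2.58%, and in both panels the MIZ1KO sums lie inside the range of the Control sums.

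The gene called higher encodes a core subunit of the Q module, and 1.9% of all tested genes were called higher. Ndufs7 (ENSMUSG00000020153, chr10:80249121-80256794, GRCm38), the subunit that holds the last iron-sulfur cluster before ubiquinone, stood at 37.3, 35.7 and 35.2 CPM in MIZ1KO replicates 1 to 3 and at 21.2, 15.7, 10.6 and 7.30 CPM in Control replicates 1 to 4. All MIZ1KO libraries lay above all Control libraries, and the Control libraries spread widely from lowest to highest while the MIZ1KO libraries stood close together. MIZ1KO averaged 36.1 ± 1.13 CPM (SD, n = 3) and Control 13.7 ± 6.07 CPM (SD, n = 4), from 73 to 358 counts a library. The log2 fold change was 1.42 ± 0.30 (SE; edgeR adjusted p = 0.0163). The gene overlaps no other gene model. Ndufs7 lost its call without MIZ1KO replicate 1 (log2 fold change 1.43, adjusted p = 0.0826) and without Control replicate 4 (1.25, adjusted p = 0.0507). It also ended with a correction for GC content and length (0.97, adjusted p = 0.061) and with the TEC share as a covariate (0.57, adjusted p = 0.577).

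Of the other core subunits of the Q module, Ndufs3 and Ndufs8 had positive log2 fold changes that did not pass the test. Ndufs3, a subunit at the base of the matrix arm, had 29.3, 32.9 and 35.0 CPM in MIZ1KO and 32.3, 26.5, 17.4 and 25.3 CPM in Control (0.35 ± 0.25, adjusted p = 0.409). Ndufs8, an iron-sulfur subunit, had 44.0, 49.4 and 40.8 CPM in MIZ1KO and 62.6, 43.8, 21.6 and 30.1 CPM in Control (0.19 ± 0.29, adjusted p = 0.738), so the Control libraries lay on both sides of the MIZ1KO libraries.

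In the N module 0 of the 3 core subunits passed edgeR's test, 0 had a p under 0.05 before adjustment, and DESeq2 and limma-voom called 0. Ndufv1, the flavoprotein that binds NADH, had 28.2, 21.9 and 23.3 CPM in MIZ1KO and 28.9, 8.85, 18.6 and 15.4 CPM in Control (log2 fold change 0.44 ± 0.32, adjusted p = 0.412). Control replicate 1 was the highest library and Control replicate 2 the lowest. Ndufv2, its iron-sulfur partner, had 26.6, 35.1 and 24.6 CPM in MIZ1KO and 44.5, 33.4, 23.1 and 28.1 CPM in Control (-0.16 ± 0.26, adjusted p = 0.762). Ndufs1, the largest subunit of the complex and a chain of iron-sulfur clusters, had 24.2, 37.2 and 18.9 CPM in MIZ1KO and 34.0, 30.1, 31.0 and 27.7 CPM in Control (-0.18 ± 0.25, adjusted p = 0.715). In Ndufs1 the MIZ1KO libraries spread to both sides of the Control libraries; its model overlaps Eef1b2.

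Accessory subunits do not carry electrons but hold the complex together. Of the 9 on the matrix arm, 0 passed edgeR's test, 2 were higher at p under 0.05 before adjustment (Ndufa5 and Ndufa2; 9.92% of all tested genes were), and DESeq2 and limma-voom called 0; 7 were above 0, with a median log2 fold change of 0.29. Ndufa5, a small subunit bound to the Q module, had 8.69, 19.0 and 8.19 CPM in MIZ1KO and 7.20, 8.85, 3.67 and 5.30 CPM in Control (0.99 ± 0.40, adjusted p = 0.14). MIZ1KO replicate 2 stood far above the other 6 libraries. Ndufa2, a subunit of the N module with a thioredoxin-like fold, had 27.6, 41.7 and 41.1 CPM in MIZ1KO and 38.7, 23.9, 16 and 17.4 CPM in Control (0.62 ± 0.29, adjusted p = 0.203). Without Control replicate 1 Ndufa2 was called higher, as were 4.48% of all genes. Its gene model overlaps Tmco6.

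Ndufa9, the accessory subunit of the matrix arm with the highest CPM before scaling to length, had 38.5, 49.9 and 31.5 CPM in MIZ1KO and 65.3, 37.7, 26.1 and 30.5 CPM in Control (log2 fold change 0.01 ± 0.29, adjusted p = 0.984). Ndufv3, a small subunit beside Ndufv1, had 22.2, 26.8 and 22.0 CPM in MIZ1KO and 21.9, 19.6, 12.8 and 15.6 CPM in Control (0.45 ± 0.27, adjusted p = 0.31). The groups of Ndufv3 did not overlap, by a margin within 1 CPM. The lowest log2 fold changes on the matrix arm were those of Ndufa7 (-0.62 ± 0.35) and Ndufs4 (-0.49 ± 0.27), where Ndufs4 stood at 23.8 to 41.1 CPM in MIZ1KO and 27.8 to 55.5 CPM in Control. Ndufv3, Ndufa7 and Ndufs4 were named after their values were seen.

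**Figure D3:**
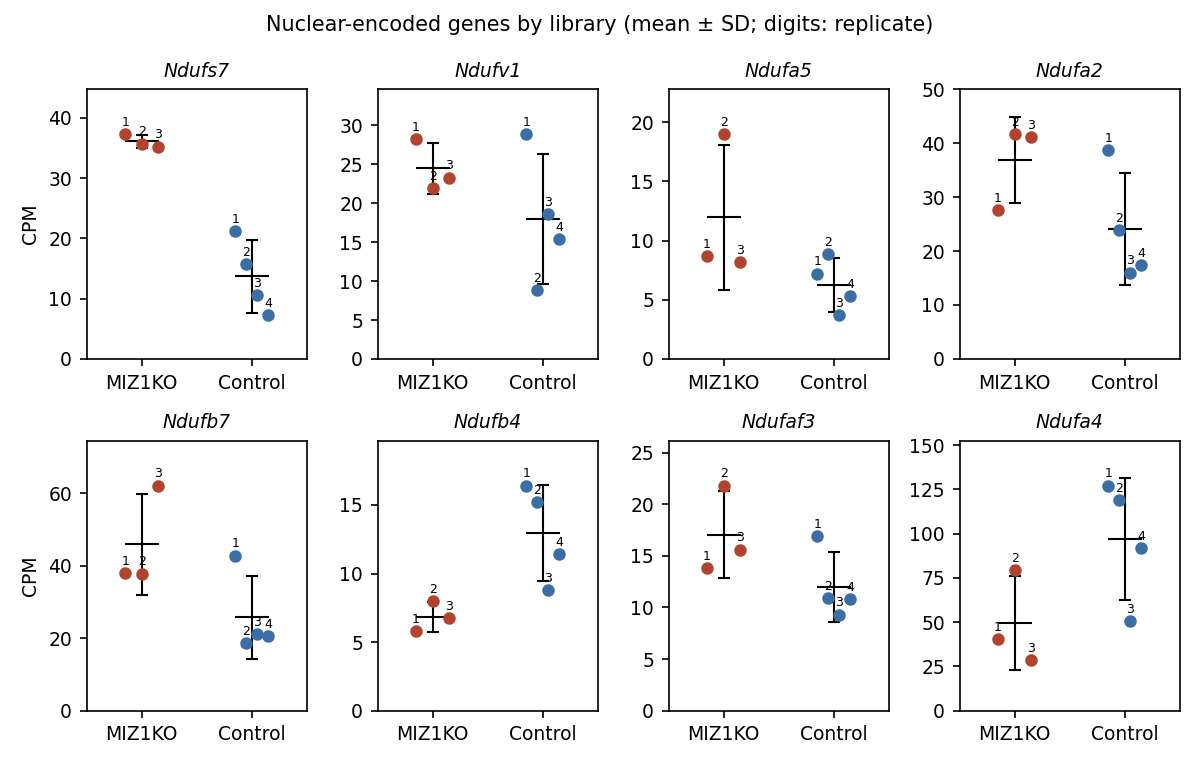
CPM of 8 nuclear-encoded genes in each library (points, numbered by replicate) with the mean and SD of the group. In Ndufs7 the MIZ1KO libraries lie at 35.2 to 37.3 CPM and the Control libraries at 7.30 to 21.2 CPM; in Ndufb4 the MIZ1KO libraries lie below the Control libraries, and in the other panels the groups overlap.

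On the membrane arm the accessory subunits lay on both sides of 0. Of 19 tested, 9 were above 0 and the median log2 fold change was -0.03. Calls by edgeR, DESeq2 and limma-voom were 0. By edgeR 1 was higher (Ndufb7) and 2 lower (Ndufb4 and Ndufb9) at p under 0.05 before adjustment, against 9.92% and 14.7% of all tested genes. Ndufb7, a subunit on the side of the intermembrane space, had 37.9, 37.8 and 62.1 CPM in MIZ1KO and 42.8, 18.6, 21.1 and 20.5 CPM in Control. MIZ1KO averaged 45.9 ± 14.0 CPM (SD, n = 3) and Control 25.8 ± 11.4 CPM (SD, n = 4), and the log2 fold change was 0.82 ± 0.29 (adjusted p = 0.0942). Control replicate 1 alone overlapped the MIZ1KO libraries, and without it Ndufb7 was called higher (adjusted p = 0.00817), as were 4.48% of all genes. Ndufa13, also known as GRIM-19 and the accessory subunit with the highest CPM before scaling to length, had 53.2, 62.7 and 60.4 CPM in MIZ1KO and 73.3, 36.3, 26.8 and 25.6 CPM in Control (0.54 ± 0.30, adjusted p = 0.271). Here too Control replicate 1 was the highest of the 7 libraries, and without it the gene was called higher. Its model overlaps Tssk6 and Yjefn3.

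Ndufb4 had 5.79, 7.98 and 6.74 CPM in MIZ1KO and 16.4, 15.2, 8.77 and 11.4 CPM in Control (log2 fold change -0.91 ± 0.35, adjusted p = 0.121). The MIZ1KO libraries were all lower than the Control libraries. Its counts were not whole in any of the 7 libraries, and the processed copy Ndufb4c had 10.4, 18.6 and 11.4 CPM in MIZ1KO and 32.2, 32.3, 11.5 and 28.6 CPM in Control (-0.94 ± 0.34, adjusted p = 0.103). The levels of gene and copy are therefore uncertain. Their sum averaged 20.3 ± 5.54 CPM for MIZ1KO (SD, n = 3) and 39.1 ± 13.1 CPM for Control (SD, n = 4), with overlap. Ndufb9 had 27.0, 39.4 and 17.7 CPM in MIZ1KO and 58.4, 60.2, 27.9 and 37.0 CPM in Control (-0.69 ± 0.30, adjusted p = 0.169); it was named after its values were seen and overlaps Gm49356. Ndufab1, the mitochondrial acyl carrier protein that binds both arms, had 24.2, 34.3 and 27.5 CPM in MIZ1KO and 37.2, 31.4, 30.3 and 33.8 CPM in Control (-0.21 ± 0.23, adjusted p = 0.623).

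Ndufa4, named after its values were seen, carries a complex I symbol but is a subunit of cytochrome c oxidase, complex IV. It had 40.4, 79.4 and 28.7 CPM in MIZ1KO and 127, 119, 50.4 and 91.9 CPM in Control. MIZ1KO averaged 49.5 ± 26.5 CPM (SD, n = 3) and Control 97.0 ± 34.5 CPM (SD, n = 4). The log2 fold change was -0.95 ± 0.32 (adjusted p = 0.0822), the lowest of the 45. The groups overlapped through a pair of libraries, MIZ1KO replicate 2 being high and Control replicate 3 low. Without MIZ1KO replicate 2 the difference was called (-1.42, adjusted p = 0.0305), as it was without Control replicate 3 (-1.12, adjusted p = 0.0315). Of 11618 genes these fits called 237 and 232 lower.

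The 8 assembly factors with Nduf symbols build the complex without being part of the finished enzyme. By edgeR's test 0 were called and 0 had a p under 0.05 before adjustment, and DESeq2 and limma-voom called 0; 6 were above 0, with a median log2 fold change of 0.16. Ndufaf3, which with Ndufaf4 helps to build the Q module, had 13.8, 21.8 and 15.6 CPM in MIZ1KO and 16.9, 10.9, 9.30 and 10.8 CPM in Control (0.52 ± 0.31, adjusted p = 0.307). Its model overlaps Impdh2. Ndufaf8, the partner of Ndufaf5, had 10.1, 14.3 and 11.1 CPM in MIZ1KO and 8.90, 8.85, 4.98 and 9.60 CPM in Control (0.55 ± 0.34, adjusted p = 0.337), without overlap of the groups. Ndufaf2, a relative of Ndufa12 that acts late in assembly, had 16.9, 6.78 and 6.58 CPM in MIZ1KO and 12.4, 6.21, 4.06 and 5.0 CPM in Control (0.58 ± 0.45, adjusted p = 0.453), with replicate 1 high in each group. Its log2 fold change was 0.00 without MIZ1KO replicate 1 and 1.03 without Control replicate 1. Ndufaf6 had the lowest CPM of the 45, before and after scaling to length, with 5 to 21 counts a library.

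The 7 mitochondrially encoded subunits form the proton-pumping core of the membrane arm. In MIZ1KO cells 0 of the 7 were called higher and 0 lower by edgeR, where 1.9% and 4.05% of all tested genes were. Before adjustment mt-Nd3 was higher at p under 0.05, as were 9.92% of all tested genes. DESeq2 called mt-Nd3 higher and limma-voom called 0. Their median log2 fold change was 0.10 (-0.17 without Control replicate 1, -0.04 without MIZ1KO replicate 1 and 0.34 without Control replicate 3), and 0.99, with 7 of 7 above 0, in the fit with the TEC share as a covariate. The groups overlapped in all 7. Their summed level was 2723, 1887 and 2178 CPM in MIZ1KO replicates 1 to 3 and 1320, 2626, 3275 and 1627 CPM in Control replicates 1 to 4. MIZ1KO averaged 2263 ± 424 CPM (SD, n = 3) and Control 2212 ± 902 CPM (SD, n = 4).

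Between libraries the mitochondrially encoded genes did not follow the nuclear-encoded ones. Control replicate 1, highest of the 7 libraries in the nuclear sum, was lowest in the mt-Nd sum, and Control replicate 3, lowest in the nuclear sum, was highest in the mt-Nd sum. The ratio of the mt-Nd sum to the nuclear sum was 2.51, 1.29 and 2.08 in MIZ1KO and 0.787, 2.10, 4.43 and 1.68 in Control. The MIZ1KO ratios lay inside the range of the Control ratios. Within the 13 mitochondrial mRNAs the mt-Nd share was 29.9%, 31.0% and 30.8% in MIZ1KO and 26.9%, 30.4%, 31.6% and 30.6% in Control, so that it varied far less than the sums. The 6 mitochondrial mRNAs of the other complexes summed to 6380, 4205 and 4901 CPM in MIZ1KO and to 3587, 6022, 7081 and 3691 CPM in Control, in the same order of libraries as the mt-Nd genes.

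The smallest p of the 7 belonged to mt-Nd3. It had 111, 36.6 and 128 CPM in MIZ1KO replicates 1 to 3 and 40.1, 52.2, 48.7 and 40.5 CPM in Control replicates 1 to 4. MIZ1KO replicates 1 and 3 lay above all Control libraries and MIZ1KO replicate 2 below them. MIZ1KO averaged 91.7 ± 48.5 CPM (SD, n = 3) and Control 45.4 ± 6.03 CPM (SD, n = 4), and the log2 fold change was 1.01 ± 0.30 (adjusted p = 0.0556). DESeq2's adjusted p was 0.0282. Without MIZ1KO replicate 2 the change was called by edgeR (1.45, adjusted p = 0.00665), where 305 of 11618 genes were called higher. The gene made up 4.08%, 1.94% and 5.86% of the mt-Nd sum in MIZ1KO and 3.03%, 1.99%, 1.49% and 2.49% in Control. Its counts were not whole in any library, which leaves its level less certain.

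**Figure D4:**
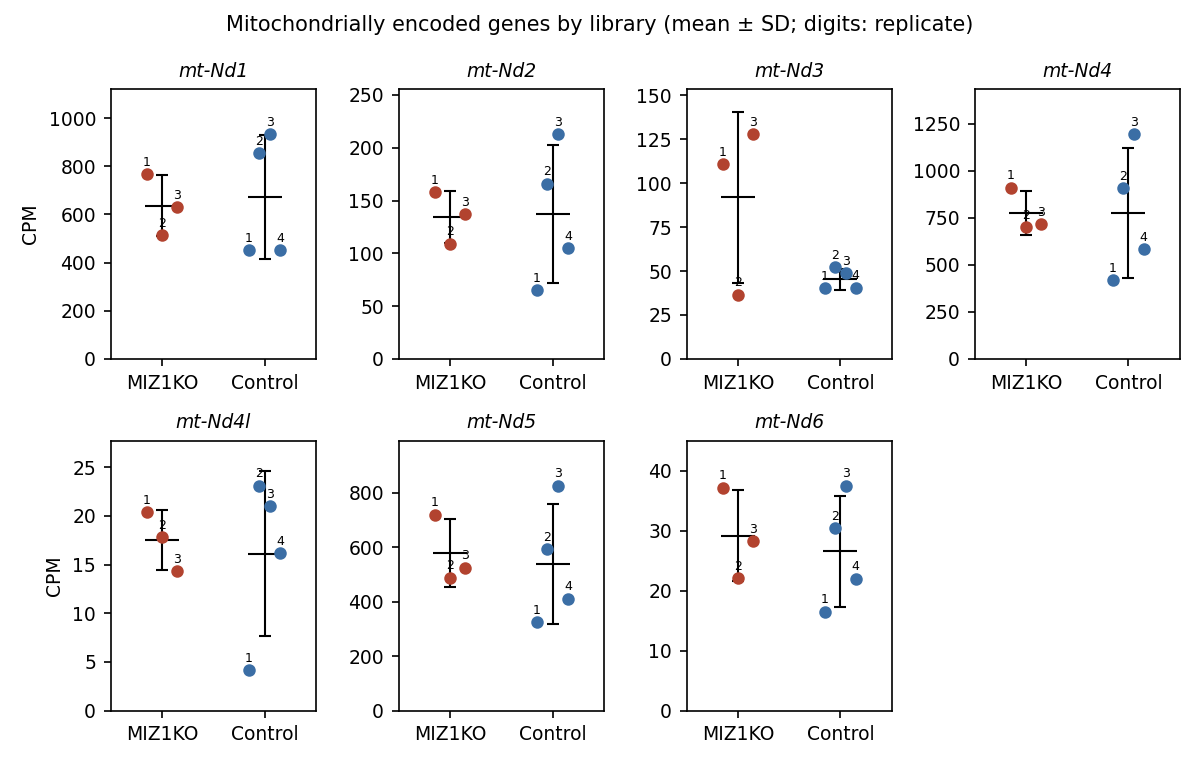
CPM of the 7 mt-Nd genes in each library (points, numbered by replicate) with the mean and SD of the group. The groups overlap in every panel; in mt-Nd3 MIZ1KO replicates 1 and 3 lie at 111 and 128 CPM, above the Control libraries at 40.1 to 52.2 CPM, and MIZ1KO replicate 2 lies at 36.6 CPM.

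The other 6 mt-Nd genes had adjusted p-values of 0.813 or more. The gene mt-Nd1, for the subunit that joins the ubiquinone site to the membrane arm, had 766, 513 and 629 CPM in MIZ1KO and 452, 853, 934 and 451 CPM in Control (log2 fold change -0.08 ± 0.29, adjusted p = 0.899). The gene mt-Nd4 had 910, 700 and 716 CPM in MIZ1KO and 417, 908, 1195 and 582 CPM in Control (0.00 ± 0.31, adjusted p = 0.999). In both, Control replicate 3 was highest and the Control libraries enclosed the MIZ1KO libraries. The gene mt-Nd5 had 720, 489 and 525 CPM in MIZ1KO and 325, 593, 826 and 411 CPM in Control (0.10 ± 0.29, adjusted p = 0.869), and mt-Nd2 had 158, 109 and 137 CPM in MIZ1KO and 65.1, 166, 213 and 105 CPM in Control (-0.02 ± 0.30, adjusted p = 0.971). The proteins of mt-Nd2, mt-Nd4 and mt-Nd5 are the antiporter-like proton pumps. The sign of the log2 fold change of mt-Nd1, mt-Nd2, mt-Nd4 and mt-Nd5 turned with at least 1 library left out.

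The gene mt-Nd4l, which overlaps mt-Nd4 and shares its transcript, had 20.4, 17.8 and 14.3 CPM in MIZ1KO and 4.19, 23.1, 21.0 and 16.2 CPM in Control (log2 fold change 0.14 ± 0.38, adjusted p = 0.866). Control replicate 1 was far below the other 6 libraries. The gene mt-Nd6, encoded on the opposite strand and overlapping mt-Nd5, had 37.2, 22.1 and 28.3 CPM in MIZ1KO and 16.5, 30.4, 37.5 and 22.0 CPM in Control (0.14 ± 0.29, adjusted p = 0.813). Both signs turned without Control replicate 1, and that of mt-Nd6 also without MIZ1KO replicate 1. The strand setting behind the counts is not given, so those of mt-Nd6 may hold reads from the other strand. With GC content and length corrected for, the median log2 fold change of the 7 was 0.97, and mt-Nd3 and mt-Nd6 were called higher, where 0.74% of all tested genes were. The median GC content of the mt-Nd genes was 35.7% and that of the tested nuclear-encoded genes 51.4%.

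Per kilobase of exonic length the mt-Nd genes stood at a median of 187 CPM and the tested nuclear-encoded genes at 13.6 CPM, over the 7 libraries. The order was mt-Nd1 (686 CPM per kilobase), mt-Nd4 (563), mt-Nd5 (304), mt-Nd3 (187), mt-Nd2 (131), mt-Nd4l (56.3) and mt-Nd6 (53.4). The highest nuclear-encoded genes were Ndufc2 (56.1 CPM per kilobase) and Ndufa4 (55.5), level with the lowest mt-Nd genes, and the lowest was Ndufaf6 (1.01). Of the nuclear-encoded genes 21 overlap another gene model, and 10 had counts that were not whole in some library, so their levels are less certain. Exonic length joined the exons of all transcripts of a gene, and can exceed the length of its main mRNA. Its median was 1718 bases for the tested nuclear-encoded genes, with 6883 for Ndufab1, and 957 for the mt-Nd genes. Levels per kilobase, and their order, depend in part on this measure of length.

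Among the assembly factors without Nduf symbols, 13 of 14 listed genes were tested. By edgeR, DESeq2 and limma-voom 0 were called, and the median log2 fold change was 0.15. Before adjustment 2 were higher (Aifm1 and Timmdc1) and 1 lower (Chchd4) at p under 0.05 by edgeR, against 9.92% and 14.7% of all tested genes. Aifm1 and Chchd4 work together in the intermembrane space, where Chchd4 folds imported proteins with paired cysteines. Aifm1 had 20.9, 16.4 and 25 CPM in MIZ1KO and 13.6, 13.0, 11.4 and 10 CPM in Control (0.78 ± 0.28, adjusted p = 0.0977). Chchd4 had 10.3, 9.37 and 10.1 CPM in MIZ1KO and 19.8, 17.1, 15.2 and 18.8 CPM in Control (-0.84 ± 0.29, adjusted p = 0.0843). Neither gene overlapped between the groups, Aifm1 being the higher and Chchd4 the lower one in MIZ1KO. Of all tested genes 8.74% had MIZ1KO above without overlap and 10.8% had it below. Timmdc1, named after its values were seen, had a log2 fold change of 0.80 (adjusted p = 0.131).

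Of 18 genes that copy, transcribe or process the mitochondrial genome, 1 fell and 0 rose by edgeR, with 3 higher before adjustment at p under 0.05 (Polrmt, Fastk and Tbrg4) and 3 lower (Ssbp1, Polg2 and Tefm). Over all tested genes these shares were 1.9% higher and 4.05% lower after adjustment and 9.92% and 14.7% before it. DESeq2 and limma-voom likewise called Ssbp1 lower and 0 higher. Ssbp1 (ENSMUSG00000029911, chr6:40471352-40484700, GRCm38), the single-stranded DNA binding protein of the mitochondrial replication fork, had 24.9, 21.9 and 22.3 CPM in MIZ1KO replicates 1 to 3 and 52.4, 54.0, 41.9 and 55.8 CPM in Control replicates 1 to 4. The groups did not overlap. MIZ1KO averaged 23.0 ± 1.60 CPM (SD, n = 3) and Control 51.0 ± 6.24 CPM (SD, n = 4), and the log2 fold change was -1.15 ± 0.22 (adjusted p = 0.0127). Its call was lost without MIZ1KO replicate 1 (-1.17, adjusted p = 0.0729) and without Control replicate 4 (-1.04, adjusted p = 0.0572). Tfam, which packages mitochondrial DNA and starts its transcription, had 22.5 to 30.6 CPM in MIZ1KO and 23.6 to 42.8 CPM in Control (-0.18 ± 0.25, adjusted p = 0.72).

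Of the regulators of nuclear respiratory genes 10 of 11 listed genes were tested, 1 of which rose and 0 fell by edgeR (1.9% and 4.05% of all tested genes), 0 others having a p under 0.05 before adjustment; DESeq2 and limma-voom called the same gene alone. It was Pprc1 (ENSMUSG00000055491, chr19:46044886-46072915, GRCm38), a coactivator of the PGC-1 family that works with NRF1 and is known from cultured cells as induced by growth signals. Pprc1 had 41.6, 31.5 and 45.4 CPM in MIZ1KO replicates 1 to 3 and 16.6, 16.1, 21.3 and 17.6 CPM in Control replicates 1 to 4. No Control library reached a MIZ1KO library. MIZ1KO averaged 39.5 ± 7.19 CPM (SD, n = 3) and Control 17.9 ± 2.36 CPM (SD, n = 4), and the log2 fold change was 1.13 ± 0.24 (adjusted p = 0.0162). Pprc1 lost its call when MIZ1KO replicate 1 (1.13, adjusted p = 0.0874), MIZ1KO replicate 3 (1.02, adjusted p = 0.0502) or Control replicate 2 (1.09, adjusted p = 0.053) was left out, with the GC content and length correction (0.71, adjusted p = 0.0832) and with the TEC share as a covariate (1.51, adjusted p = 0.0573). Its model overlaps Ldb1. Nrf1 (-0.04 ± 0.23, adjusted p = 0.941), Yy1 (0.35 ± 0.24, adjusted p = 0.384) and Myc (0.36 ± 0.23, adjusted p = 0.348) did not pass the test; Ppargc1a was too low to be tested.

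**Figure D5:**
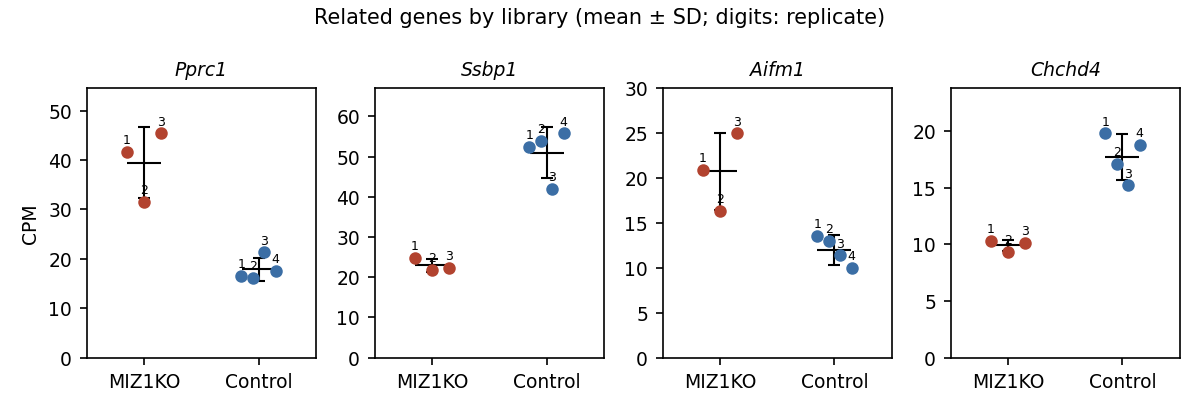
CPM of Pprc1, Ssbp1, Aifm1 and Chchd4 in each library (points, numbered by replicate) with the mean and SD of the group. The groups do not overlap in any panel, as for 8.74% of all tested genes with MIZ1KO above and 10.8% with MIZ1KO below. Pprc1 and Aifm1 are higher in MIZ1KO, Ssbp1 and Chchd4 lower, and only Pprc1 and Ssbp1 passed the adjusted test.

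The 6 mitochondrial mRNAs for complexes III, IV and V, cut from the same long transcripts as the mt-Nd genes, gave 0 calls by edgeR and 0 genes with a p under 0.05 before adjustment, and DESeq2 and limma-voom called 0. The smallest p belonged to mt-Co3, with 538, 249 and 395 CPM in MIZ1KO and 266, 336, 285 and 247 CPM in Control (log2 fold change 0.48 ± 0.25, adjusted p = 0.246). The next was mt-Co2, with 654, 417 and 457 CPM in MIZ1KO and 310, 575, 527 and 369 CPM in Control (0.19 ± 0.26, adjusted p = 0.694). The groups overlapped in both. With the correction for GC content and length mt-Co3 was called higher (1.24, adjusted p = 0.0225), as were 0.74% of all tested genes.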

How the data were processed

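RNA of 3 MIZ1KO and 4 Control libraries was grouped by the genotype label. The authors deposited expected counts per gene, estimated reads that need not be whole, without normalization. STAR 2.5.2, RSEM 1.3.0, DESeq2 1.18.1, R 3.4.3 and GRCm38 are named per the submitters' processing notes, without their roles. The authors also deposited a table of log2 values, which served as an alternative; no source used here states their transformation, or the annotation, strand setting and handling of shared reads behind the counts.

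Symbols and coordinates came from GENCODE vM21 on GRCm38, which matched 48435 of 48795 identifiers. Expected counts, 6.61% of them not whole, were rounded. Genes passing filterByExpr were scaled by TMM and tested in edgeR 4.0.16 (R 4.3.3) by its quasi-likelihood method (robust, non-legacy fit), two-sided, with Benjamini-Hochberg adjustment over 11618 genes; 221 were called higher and 471 lower in MIZ1KO at an adjusted p under 0.05. The standard error is the log2 fold change over the root of F. All p-values in the text come from this fit unless another tool is named. CPM use TMM-scaled library sizes; the limit for 0 counts is 3 counts and covers counting error only. DESeq2 1.42.0 and limma 3.58.1 were alternatives. The scripts were tested on simulated data.

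Members and lists were chosen with earlier results of these data known. Named were all members past the threshold, all mt-Nd genes, in each role class the 2 with the smallest p, the highest level and the largest absolute log2 fold change, in each other list the genes past the threshold or else the 2 with the smallest p, and Zbtb17; members overlapping other models could also be named. No score over the members was tested, and 1 member is counted but not reported here by name. No pair of libraries of the same group agreed within sampling noise, and pairs across the groups were not compared. Promoter sequences are from RefSeq.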

Additional observations from a re-analysis of the deposited data

Results flagged for a closer look

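In 2 of the 54 sets of Control values checked, 1 library stood far from the other 3, with a gap to its nearest neighbour above Dixon's 95% limit; chance alone gives such a gap in about 1 in 20 groups. Ndufb7 stood at 42.8 CPM in Control replicate 1, against 18.6 to 21.1 CPM in the other Control libraries, and this library alone overlapped the MIZ1KO libraries of that gene. Ndufaf8 stood at 4.98 CPM in Control replicate 3, against 8.85 to 9.60 CPM in the other Control libraries. The MIZ1KO group, with 3 libraries, was too small for this check.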

How the results depend on the processing

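Of the nuclear-encoded genes, 0 were called higher with the GC content and length correction and 0 with the TEC share as a covariate, against 1 (Ndufs7) in the other 9 alternatives that kept all libraries; with a library left out the count lay between 0 and 4. The 4 (Ndufa13, Ndufa2, Ndufb7 and Ndufs7) were found without Control replicate 1 and the 0 without MIZ1KO replicate 1 or Control replicate 4. The count of lower calls was 5 with the TEC covariate (Ndufa4, Ndufa7, Ndufb8, Ndufb9 and Ndufc2) and between 0 and 1 with a library left out. Over all genes the fit with the TEC covariate called 249 of 11618 lower. Of the mt-Nd genes, 1 (mt-Nd3) was called higher with DESeq2 size factors in edgeR, 1 with the DESeq2 test and 1 without ribosomal RNA genes. With the GC content and length correction 2 were called higher (mt-Nd3 and mt-Nd6). Over all genes these fits called 264 of 11618, 415 of 13739, 298 of 11614 and 86 of 11618 higher, in that order. With a library left out the count of mt-Nd genes called higher was between 0 and 1. Lower mt-Nd calls were 0 in all 18 alternatives.

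Same-numbered MIZ1KO and Control libraries deviated from their groups with correlations of 0.0233, 0.0665 and 0.162; with not all of them over 0.1, and no label that ties them, the numbers were not taken as pairs. Of the 6 numbered libraries 4 correlated best with their own number, a hint from the data and not from the design. With replicate number as a block, 1 nuclear-encoded gene was called lower (Ndufa4, -1.02, adjusted p = 0.0279), Ndufa9 gave -0.04 and mt-Nd4 -0.01. Over all genes the block called 131 higher and 345 lower. No MIZ1KO library carries the number 4, so Control replicate 4 did not enter the difference between the groups in that fit.

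Over the 45 nuclear-encoded genes, 6 were above 0 with the TEC covariate, against 27 without it. The TEC shares did not overlap between the groups, so the covariate cannot be well told apart from genotype. Those recomputed one by one were the genes named by the rule; the log2 fold change turned sign, among others, for Ndufa13 (-0.49), Ndufa2 (-0.14), Ndufa9 (-1.17), Ndufaf2 (-1.19), Ndufaf3 (-0.14), Ndufv1 (-0.19), mt-Nd1 (0.52) and mt-Nd2 (1.17). Among the same genes it turned with the GC content and length correction for Ndufs1 (0.01), Ndufv2 (0.16), mt-Nd1 (0.76) and mt-Nd2 (0.97). Values near 0 turned with protein-coding genes only (Ndufa9 -0.01, mt-Nd4 -0.04), the deposited log2 values (mt-Nd1 0.01, mt-Nd2 0.08), no filter (mt-Nd2 0.01), DESeq2 (mt-Nd2 0.00), limma-voom (mt-Nd2 0.10) and no ribosomal RNA genes (mt-Nd2 0.01). With a library left out, sign turned for Ndufa9 (-0.12 to 0.36), Ndufs1 (-0.44 to 0.00), Ndufv2 (-0.27 to 0.04), mt-Nd1 (-0.23 to 0.17), mt-Nd2 (-0.26 to 0.32), mt-Nd4 (-0.21 to 0.33), mt-Nd4l (-0.17 to 0.35), mt-Nd5 (-0.08 to 0.43) and mt-Nd6 (-0.04 to 0.40). The cause of these changes was not tested.

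Calls over all genes, 221 higher and 471 lower, were 127 and 215 with limma-voom, 415 and 652 with DESeq2, 151 and 317 with the legacy fit, 140 and 175 when protein-coding genes were fitted alone, 86 and 173 with the GC content and length correction and 47 and 249 with the TEC covariate. They were 21 and 17 without MIZ1KO replicate 1, 53 and 75 without Control replicate 4, and 520 and 827 without Control replicate 1. The lowest member tested, Ndufaf6, rests on 5 to 21 counts a library.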
